A study of Mus musculus with 6 samples.

Results

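The genes that charge transfer RNAs with amino acids, carry amino acids into cells and act around the transcription factor ATF4 were compared between mouse tumor organoids (MTOs) edited with a guide RNA to Prkci and MTOs edited with a guide RNA to Prkcz. The set held 36 genes of the 20756 in the deposited table: 20 cytosolic tRNA synthetases, 8 amino acid transporters and 8 ATF4-linked genes. They were chosen by name and known role, though not independently of these data, and every one was present in the table. The table lists Ensembl identifiers, to which symbols were matched here, in older form for some (Nars for Nars1, for example). Prkci and Prkcz encode the atypical protein kinases C, and the study asked how their loss alters intestinal tumor cells. MTOs are three-dimensional cultures of tumor epithelium, here of the C57BL/6 strain, obtained by the study from another laboratory. All libraries came from untreated cultures grown in a medium with B-27 and recombinant human EGF, and every culture of both groups carried CRISPR-Cas9 editing, so no unedited or control-guide library was analysed here. Each group (sgPrkci, sgPrkcz) had 3 libraries, and a difference between them cannot be assigned to one guide or the other. The sources used here did not say whether an edited MTO line was a single clone, or what separated the replicate cultures. The p-values therefore measure only the spread between these libraries, shared in part across genes of similar level by the fit.

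Each cytosolic tRNA synthetase joins an amino acid to its transfer RNAs, which then deliver it to the ribosome. When amino acids run short, the kinase GCN2 senses uncharged transfer RNA and phosphorylates the initiation factor eIF2, which slows general translation but favors translation of Atf4 mRNA. Other eIF2 kinases act on the same step. ATF4 protein then binds C/EBP-ATF response elements and activates genes for amino acid synthesis and uptake and many synthetases. The intestinal epithelium divides quickly and makes much protein, which draws on this supply of charged transfer RNA.

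Transcripts were measured by 3' end sequencing, in which each mRNA gives about one tag near its poly(A) tail, and levels are given in CPM, tag counts scaled to a common library total. A library held between 1593480 and 2815760 reads, so a single read was worth 0.355 to 0.628 CPM. The members lay between 7.94 and 1517 CPM, or 17 to 3401 reads in a library, and all 36 reached 5 CPM in every library. Prkci tags lay at 46.9 to 56.5 CPM in sgPrkci and 34.5 to 72.3 in sgPrkcz. Prkcz tags were few, at 2.26 to 4.62 CPM in sgPrkci and 2.93 to 5.02 in sgPrkcz. Neither gene checked the labels, since a guide can disrupt the protein without removing a 3' tag. One sheet of the study's source data names the libraries the other way round from the GEO labels. The labels were followed, and every direction given here would reverse under the other naming. Of 6 epithelial markers all were present, and their summed level was 3569 to 3991 CPM in sgPrkci, against 4392 to 4685 CPM in sgPrkcz. By the test used below 4 were lower in sgPrkci and 1 (Epcam) was higher, against 26.5% and 14.4% of all tested genes. Epcam had 790, 823 and 700 CPM in sgPrkci, against 586, 520 and 539 CPM in sgPrkcz. Of 7 leukocyte markers 3 were measured, summing to 7.94 to 12.4 CPM and 4.10 to 7.42 CPM, almost all of it Cd68, with Ptprc at 0 in 1 library of each group. Only Cd68 could be tested, and it was higher in sgPrkci (log2 difference 0.78), against 14.4% of all tested genes. Fibroblast markers (5 of 6 measured) summed to 0.710 to 2.34 and 0.628 to 1.85 CPM, with Col1a2 and Col3a1 at 0 throughout, and endothelial markers (4 of 4) to 0 to 0.355 and 0 to 0.742 CPM, with Kdr at 0. Ribosomal RNA-like transcripts took 22.2% of the reads in sgPrkci and 18.3% in sgPrkcz. The part of these differences in the results was not tested. In bulk cultures, fewer cells of a type and less RNA per cell cannot be told apart.

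To show the element through which ATF4 is known to act, the promoter windows of the members were searched for TGATGNAA on both strands. A window ran from 250 bases before to 50 bases after the start of the RefSeq gene (GRCm38.p6). Of the 36 members, 26 had a window in the table, and 10 of these held at least 1 match (11 matches in all). Over all genes with a window, 1219 of 27025 (4.51%) held one, and over the expressed genes that were tested, 201 of 7481 (2.69%). The members with a match were 5 of 13 synthetases, 1 of 5 transporters and 4 of 8 ATF4-linked genes. Some members were chosen for known ATF4 links, so these shares are descriptions and were not tested. The stretches below are the matches themselves, shown 5′ to 3′ on the strand of the gene with the motif letters in capitals. Stretches that lay largely in annotated exons, and all those with a match across or after the start, were kept to 24 bases.
Chac1, chr2:119351009-119351096, plus strand: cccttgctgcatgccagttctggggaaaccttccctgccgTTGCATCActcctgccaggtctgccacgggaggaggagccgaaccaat
Nupr1, chr7:126625565-126625588, minus strand: gggccagaTTGCATCAgacagggc
Asns, chr6:7693217-7693240, minus strand: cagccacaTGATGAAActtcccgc
Trib3, chr2:152344031-152344054, minus strand: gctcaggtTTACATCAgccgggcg
Slc1a4, chr11:20332702-20332725, minus strand: ctcctgcgTTGCATCAtctccagc
Tars, chr15:11399659-11399713, minus strand: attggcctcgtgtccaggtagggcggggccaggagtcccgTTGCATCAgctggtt
Gars, chr6:55037931-55038000, plus strand: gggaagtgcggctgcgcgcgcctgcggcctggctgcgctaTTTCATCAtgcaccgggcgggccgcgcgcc
Iars, chr13:49682129-49682152, plus strand: tgtcagtaTTGCATCAcctccaga
Yars, chr4:129189898-129189921, plus strand: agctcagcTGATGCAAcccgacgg
Aars, upstream match, chr8:111033722-111033745, plus strand: cttgagcaTTGCATCAgccgagcc
Aars, match after the start, chr8:111033843-111033866, plus strand: gggtcactTTTCATCAgagcgctc

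Of these 11 matches, 7 read TTGCATCA or its reverse complement TGATGCAA. The matches were spread over the window: 6 lay wholly upstream of the start, from 193 bases before it in Chac1 to 15 bases before it in Tars, and 5 lay across or after it. A match is a description of the letters and was not taken as a bound site, and the windows say nothing of elements outside them. No window of Atf4, Atf5, Ddit3 or Cebpg held these letters.

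Most members were lower in sgPrkci than in sgPrkcz, and none was called higher. By limma's moderated test on log2(CPM + 1), adjusted by Benjamini-Hochberg over all 9558 genes with at least 5 CPM in 3 libraries, 29 of the 36 were lower in sgPrkci at an adjusted p under 0.05, 0 were higher and 7 did not pass. At an unadjusted p under 0.05, 1 member (Ddit3) was higher in limma, and at the adjusted threshold 1 was higher in edgeR and 0 in DESeq2. The background was high in the same direction, with 2534 of the 9558 genes (26.5%) lower and 1377 (14.4%) higher. The median log2 difference (sgPrkci minus sgPrkcz) was -0.67 over the members and -0.11 over all tested genes. The groups did not overlap, with every sgPrkci library below every sgPrkcz library, in 27 members, against 31.8% of all tested genes, and lay the other way in 1 member (Ddit3), against 18.2%. When libraries were rescaled by TMM factors, which set the bulk of genes level between libraries and moved the median of all genes from -0.11 to 0.01, 25 members were lower and 1 higher, against backgrounds of 19.3% and 21.3%.

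**Figure D1:**
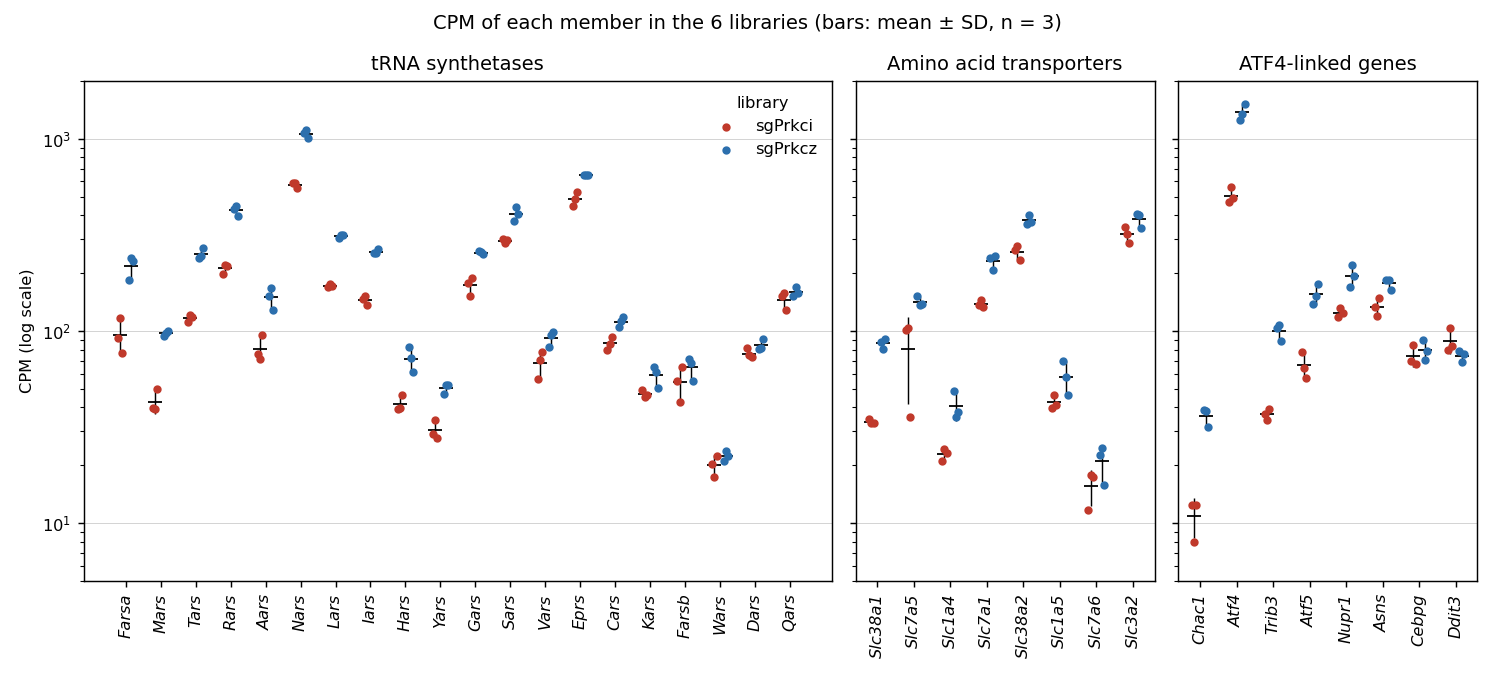
CPM of each of the 36 members on a log axis, with each point 1 library (red, sgPrkci; blue, sgPrkcz), horizontal bars the group means and vertical bars the SD (n = 3). In 27 members every red point lies under every blue point, and Slc7a5 has 1 red point, at 35.5 CPM, far under the other 2.

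The ATF4-linked genes held the largest differences. Atf4 itself (ENSMUSG00000042406, chr15:80255184-80257541, GRCm38) had 469.2, 559.1 and 490.8 CPM in the sgPrkci libraries, against 1261, 1352 and 1517 CPM in those of sgPrkcz. The groups lay far apart, with means of 506 ± 46.9 and 1377 ± 130 CPM (SD, n = 3) and a log2 difference of -1.44 ± 0.08 (SE, adjusted p = 3.02e-12). Atf4 mRNA is known to be controlled mostly at translation, and its protein was not measured here.

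Chac1, a glutathione-degrading enzyme and an ATF4 target, was the member with the largest difference. Its level was 12.4, 7.94 and 12.4 CPM in sgPrkci, against 38.6, 38.3 and 31.6 CPM in sgPrkcz, with a log2 difference of -1.66 ± 0.20 (adjusted p = 6.26e-07). Trib3, a pseudokinase that restrains ATF4 and AKT signaling, had 37.0, 34.6 and 39.4 CPM against 103.5, 107.9 and 88.9 CPM, a difference of -1.41 (adjusted p = 4.08e-09). Atf5, a related stress-induced transcription factor, had 78.1, 64.5 and 57.2 CPM against 138.7, 152.5 and 175.5 CPM, a difference of -1.22 (adjusted p = 2.72e-08). In none of these 3 genes did a library of one group reach the range of the other.

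Nupr1, a small stress-induced chromatin protein, and Asns, which makes asparagine, were lower by less. Nupr1 had 118.1, 131.7 and 124.7 CPM in sgPrkci, against 168.7, 220.9 and 192.5 CPM in sgPrkcz (log2 difference -0.63, adjusted p = 2.4e-05). Asns, among the best known ATF4 targets, had 133.1, 119.6 and 147.7 CPM against 184.3, 185.1 and 163.3 CPM (log2 difference -0.41, adjusted p = 0.0014). In both genes the highest sgPrkci library lay under the lowest sgPrkcz library.

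The remaining pair, Ddit3 and Cebpg, did not pass. Ddit3 encodes CHOP, a partner of ATF4 in prolonged stress, and had 79.6, 103.2 and 83.5 CPM in sgPrkci against 79.0, 69.0 and 75.5 CPM in sgPrkcz. It was the single member whose sgPrkci libraries all lay above its sgPrkcz libraries, the nearest by under 1 CPM, and its log2 difference of 0.24 (95% interval 0.005 to 0.48) had an adjusted p of 0.0955. After TMM rescaling the difference was 0.36 with an adjusted p of 0.0115, so the call for Ddit3 depended on the scaling. Cebpg, which pairs with ATF4 on DNA, had 70.2, 85.002 and 67.5 CPM against 89.7, 70.9 and 78.4 CPM. Its groups overlapped and its difference of -0.10 lay within -0.35 to 0.14 (95% interval, adjusted p = 0.523), turning to 0.020 after TMM rescaling.

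**Figure D2:**
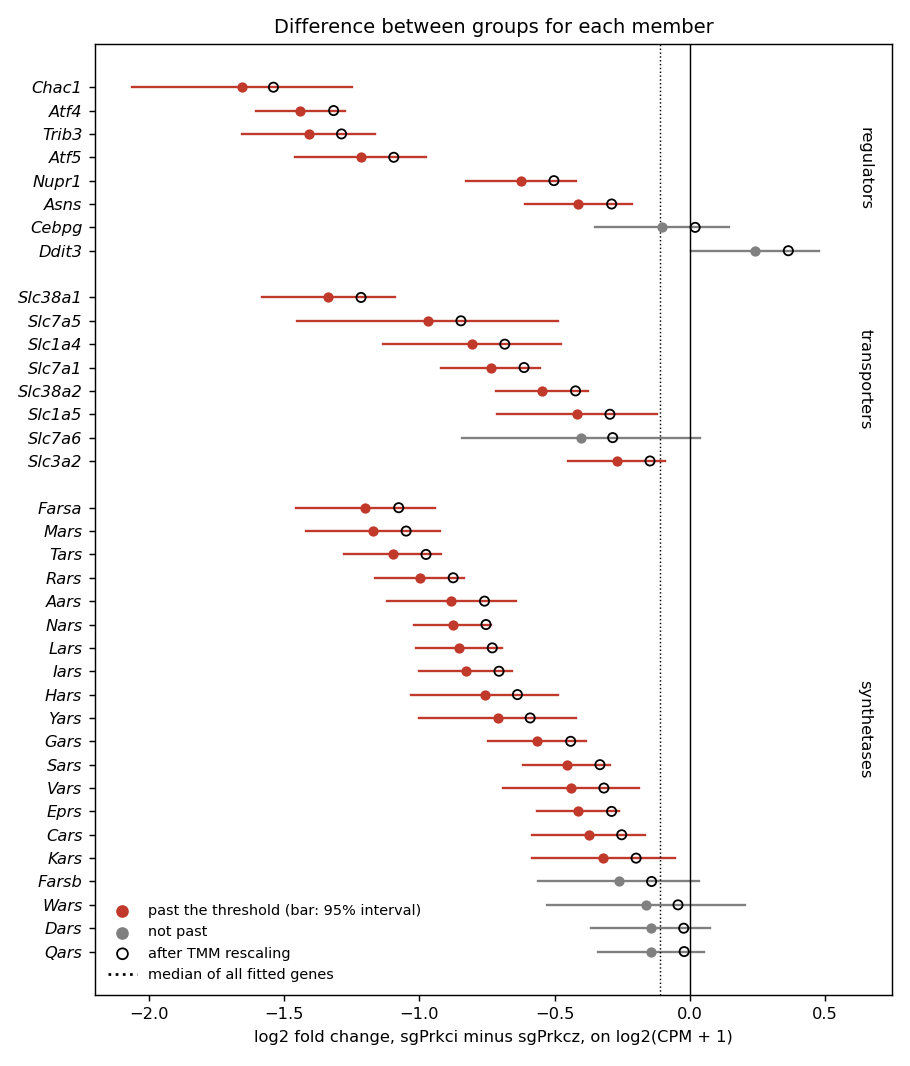
Log2 difference of each member (sgPrkci minus sgPrkcz, on log2(CPM + 1)), with bars the 95% interval of the limma fit, red for members past the adjusted p threshold of 0.05, gray for those not past it, open circles the difference after TMM rescaling and a dotted line the median of all tested genes (-0.11). Differences run from -1.66 in Chac1 to 0.24 in Ddit3, and 35 of 36 lie below 0.

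Among the transporters, 7 of 8 were lower in sgPrkci, against 26.5% of all tested genes, and 1 (Slc7a6) did not pass. Slc38a1, a sodium-coupled carrier of glutamine and other small neutral amino acids, showed the largest difference. It had 34.7, 33.2 and 33.0 CPM in sgPrkci, against 87.5, 81.0 and 91.3 CPM in sgPrkcz (log2 difference -1.34 ± 0.12, adjusted p = 8.79e-09). Its close relative Slc38a2, a transporter induced by amino acid shortage, had 265.1, 276.0 and 233.7 CPM against 360.8, 402.9 and 367.5 CPM (-0.55, adjusted p = 1.31e-05). Both genes separated the groups fully. Slc7a1, the carrier of arginine and lysine, had 137.3, 144.3 and 132.8 CPM against 239.6, 208.3 and 245.8 CPM (-0.74, adjusted p = 7.45e-07). Slc1a4, a carrier of alanine, serine and cysteine, had 21.1, 24.3 and 23.1 CPM against 49.0, 35.8 and 38.0 CPM (-0.80, adjusted p = 0.000311), again with no overlap.

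The 2 chains of the leucine transporter were both lower. Slc7a5, the light chain LAT1, had 100.7, 104.2 and 35.5 CPM in sgPrkci, against 152.4, 136.2 and 138.1 CPM in sgPrkcz (-0.97 ± 0.23, adjusted p = 0.00193). A single library, replicate 12 of sgPrkci, carried much of that size: without it the difference was -0.47 with an adjusted p of 0.00152. Slc3a2, the heavy chain shared with several other transporters, had 347.0, 320.4 and 288.4 CPM against 408.7, 402.9 and 342.3 CPM (-0.27, adjusted p = 0.0147), and the highest sgPrkci library exceeded the lowest sgPrkcz library. The difference between the chains was not tested.

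Slc1a5, which carries glutamine, also overlapped between groups, at 39.98, 46.7 and 41.2 CPM against 69.7, 57.7 and 46.2 CPM (-0.42, adjusted p = 0.0231). Slc3a2 and Slc1a5 did not pass after TMM rescaling, where 5 of the 8 transporters were lower, against 19.3% of all tested genes. Slc7a6, a carrier of cationic and neutral amino acids and the least expressed transporter here, had 11.7, 17.7 and 17.4 CPM against 22.6, 24.5 and 15.8 CPM (-0.40, 95% interval -0.84 to 0.04, adjusted p = 0.136).

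Of the 20 synthetases, 16 were lower in sgPrkci, against 26.5% of all tested genes, and 4 did not pass. All 20 had differences below 0, on a scale where the median of all tested genes was -0.11. Farsa, the catalytic subunit for phenylalanine, had 92.4, 117.2 and 76.7 CPM in sgPrkci, against 185.1, 239.1 and 231.7 CPM in sgPrkcz (-1.20 ± 0.12, adjusted p = 7.89e-08). Mars, for methionine, had 39.6, 39.2 and 49.7 CPM against 94.2, 97.9 and 99.5 CPM (-1.17, adjusted p = 6.52e-08). The sgPrkcz mean was 2.29 times the sgPrkci mean in Farsa and 2.27 times in Mars. Tars, for threonine, had 110.9, 120.5 and 119.0 CPM against 240.3, 244.7 and 269.2 CPM (-1.10, adjusted p = 1.16e-09), and Rars, for arginine, had 198.4, 220.9 and 217.0 CPM against 429.8, 449.3 and 395.5 CPM (-0.999, adjusted p = 1.45e-09). In all 4 genes each sgPrkci library lay under each sgPrkcz library.

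A second group of 6 synthetases lay between -0.88 and -0.71, each with no overlap between groups. Aars, for alanine, had 75.8, 71.9 and 94.8 CPM in sgPrkci, against 152.1, 168.2 and 128.7 CPM in sgPrkcz (-0.88, adjusted p = 2.41e-06). Nars, for asparagine and the most abundant synthetase here by tag level, had 592.2, 588.5 and 554.0 CPM against 1073, 1110 and 1008 CPM (-0.88, adjusted p = 1.13e-09). Lars, for leucine and also a leucine sensor for mTORC1, varied little within groups, at 169.0, 175.1 and 172.2 CPM against 306.3, 315.0 and 314.2 CPM (-0.85, adjusted p = 1.19e-08). Iars (isoleucine, -0.83), Hars (histidine, -0.76) and Yars (tyrosine, -0.71) were the other members of that range, with adjusted p of 4.94e-08, 7.56e-05 and 0.000295.

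Smaller differences were found for Gars (glycine, -0.56), Sars (serine, -0.46), Vars (valine, -0.44) and Eprs (glutamate and proline, -0.41), with adjusted p of 2.12e-05, 6.61e-05, 0.00581 and 0.000106. Eprs was tight in sgPrkcz, at 650.1, 648.9 and 644.8 CPM, against 446.9, 484.8 and 531.3 CPM in sgPrkci. Cars (cysteine) differed by -0.37 (adjusted p = 0.00482) and Kars (lysine) by -0.32, the latter close to the threshold with an adjusted p of 0.0491. Neither passed after TMM rescaling, where 14 of the 20 synthetases were lower, against 19.3% of all tested genes.

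The synthetases that did not pass were Farsb, Wars, Dars and Qars. Farsb, the other subunit of the phenylalanine enzyme, had 55.1, 42.5 and 65.0 CPM in sgPrkci, against 71.2, 67.8 and 55.0 CPM in sgPrkcz (-0.26, 95% interval -0.56 to 0.03, adjusted p = 0.149). The enzyme is built of both subunits. Dars (aspartate) had 81.1, 74.7 and 72.8 CPM against 80.8, 81.6 and 90.7 CPM, with an interval of -0.36 to 0.07. Qars (glutamine) had 151.2, 156.9 and 128.2 CPM against 152.4, 170.1 and 158.6 CPM, with an interval of -0.34 to 0.05. Wars (tryptophan), the least expressed synthetase, had 20.4, 17.3 and 22.4 CPM against 21.1, 23.8 and 22.2 CPM, with an interval of -0.53 to 0.20. All 4 overlapped between groups, and differences of the size seen in Farsa or Tars lay outside these intervals.

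Over all tested genes 26.5% were lower (median -0.11), and 19.3% after TMM rescaling. Of the synthetases commonly listed as ATF4 targets, 12 of 13 were lower (11 after TMM rescaling), with a median of -0.71. Of the 7 not commonly so listed (Dars, Farsa, Farsb, Hars, Kars, Qars and Rars), 4 were lower (3 after TMM rescaling), with a median of -0.32. Both sets held large and small differences, Farsa and Rars standing in the second and Wars in the first. Of the 8 synthetases of the multisynthetase complex, 6 were lower (median -0.62). Of the 9 class I enzymes 7 were lower (median -0.71) and of the 10 class II enzymes 8 (median -0.66), with the bifunctional Eprs counted in neither. These subsets were drawn from textbook knowledge with earlier results of these data known, and differences between them were not tested.

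Between the 3 classes, the medians were -0.64 for synthetases, -0.64 for transporters and -0.92 for ATF4-linked genes, against -0.11 for all tested genes. The numbers called lower were 16 of 20, 7 of 8 and 6 of 8, against 26.5% of all tested genes. The ranges overlapped widely, at -1.20 to -0.14, -1.34 to -0.27 and -1.66 to 0.24, and the ATF4-linked class held both the lowest and the highest member. After TMM rescaling the medians were -0.52, -0.52 and -0.80. The summed level of the synthetases was 2915 to 3016 CPM in sgPrkci, against 4724 to 4962 CPM in sgPrkcz, that of the transporters 805 to 967 and 1285 to 1390 CPM, and that of the ATF4-linked genes 998 to 1105 and 2064 to 2323 CPM. In all 3 classes each sgPrkci sum lay under each sgPrkcz sum. Since sums follow their most abundant genes (Atf4 in the last), the class median in each library is a second view. It lay between -0.73 and -0.53 for synthetases, -0.74 and -0.45 for transporters and -0.97 and -0.84 for ATF4-linked genes in the sgPrkci libraries, and within 0.10 of 0 in every sgPrkcz library.

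**Figure D3:**
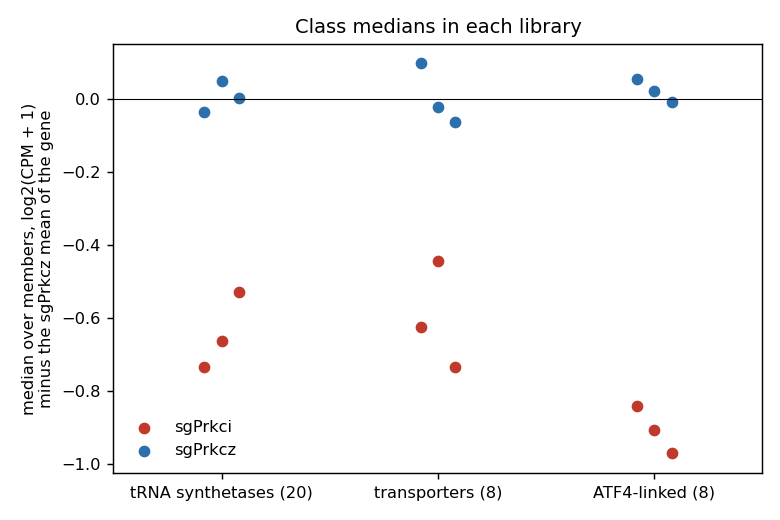
Median over the members of each class of log2(CPM + 1) minus the sgPrkcz mean of the same gene, with 1 point per library (red, sgPrkci; blue, sgPrkcz). The ATF4-linked points of sgPrkci (-0.97 to -0.84) lie under those of the synthetases (-0.73 to -0.53) and transporters (-0.74 to -0.45), and sgPrkcz points lie near 0 by construction.

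Of all tested genes with a match, 62 of 201 (30.8%) were lower (median -0.14), and of those with a window and no match 1932 of 7280 (26.5%, median -0.11). Members with a promoter match numbered 10, and all 10 were lower (median -0.82, range -1.66 to -0.41). Of the 16 with a window and no match 10 were lower (median -0.41, range -1.44 to 0.24), and of the 10 members that lacked a window, 9 were lower (median -0.81). Atf4 (-1.44) had the lowest value among those with a window and no match. The members were chosen partly for known ATF4 links and with earlier results of these data known. The contrast between members with and without a match is therefore a description and was not tested.

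Neighboring genes can share tags with some members, because the strand setting of the counting was not given in the sources used here. Mars and Ddit3 lie tail to tail on chromosome 10, and the last 68 bases of their annotated 3' ends overlap. Mars was lower and Ddit3 was not, but whole-gene counts cannot show whether tags in the overlap were shared, which was not tested. The 3' window of Farsb overlaps Sgpp2 on the other strand, which had 5 to 10 reads in the sgPrkci libraries and 0 in the sgPrkcz libraries. The 3' end of Aars is also annotated within a second gene model, Exosc6, on the same strand, which was not used here, and Iars has a near-identical processed pseudogene, Gm4849, with 1 read over all libraries. The last 30 bases of Yars overlap C77080 on the other strand, at 88.9 to 116 CPM. Tags of Yars and C77080 within that overlap could not be told apart.

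Related lists of genes outside the 36 were counted in the same fit, where 26.5% of all tested genes were lower and 14.4% higher. Of 17 mitochondrial synthetases 11 were expressed enough to test, and 4 (36.4%) were lower and 0 higher (median -0.32), among them Yars2 (-0.81), Hars2 (-0.72) and Tars2 (-0.92), which charge mitochondrial transfer RNAs. The scaffold proteins Aimp1 (-0.46) and Aimp2 (-0.41), which hold the multisynthetase complex together, and the tRNA exporter Xpot (-0.42) were lower, and Eef1e1 (-0.31) did not pass. After TMM rescaling Aimp1 alone of that list was lower. The list of eIF2, its exchange factor, kinases and phosphatases had 4 of 14 lower (28.6%, near the share of all tested genes) and 0 higher (median -0.21), and 3 lower and 1 higher after TMM rescaling. The 4 lower before rescaling were Eif2s2 (-0.86), Eif2b3 (-1.11), Eif2b5 (-0.69) and Eif2b4 (-0.42). The first is a subunit of eIF2 and the others belong to its exchange factor, and none of the 4 eIF2 kinase genes passed.

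Most other genes known as ATF4 targets were lower in sgPrkci. Of 20 tested, 13 (65%) were lower, against 26.5% of all tested genes (median -0.83). Another 3 were higher, near the 14.4% of all tested genes that were higher. After TMM rescaling 13 were again lower and 3 higher, against 19.3% and 21.3%. The 4 with the smallest adjusted p were Mthfd2 and Shmt2 of mitochondrial folate metabolism (-1.14 and -1.46), Cth, which makes cysteine (-1.73), and Psat1 of serine synthesis (-0.72). Mthfd2 had 134 ± 5.58 CPM in sgPrkci, against 296 ± 12.8 CPM in sgPrkcz (SD, n = 3). The 3 higher genes, named after their values were seen, were Ddit4, an mTORC1 inhibitor (0.76), Atf3, a stress transcription factor (0.86), and Vldlr, a lipoprotein receptor (0.23). Among 8 testable amino acid transporters outside the members, Slc6a6, the taurine carrier, was higher (0.51), Slc6a9, the glycine carrier, was lower (-0.59), and the median was -0.15. Slc38a10 (-0.36) and Slc38a9 (-0.46), the latter a lysosomal amino acid sensor, did not pass.

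**Figure D4:**
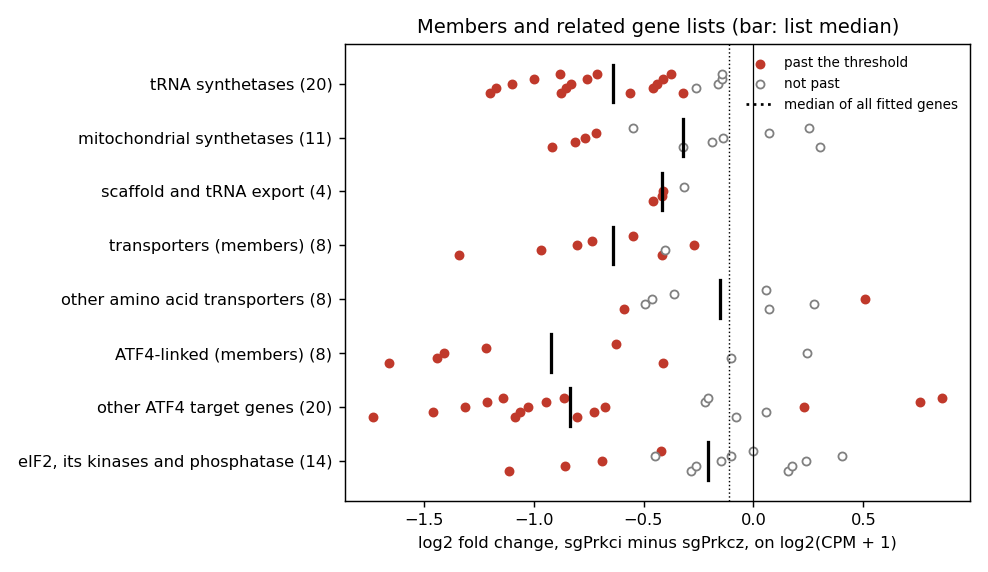
Log2 difference (sgPrkci minus sgPrkcz) of the members by class and of genes in related lists, with the number tested in parentheses, bars the list medians, filled points past the threshold, open points not past it and a dotted line the median of all tested genes (-0.11). The members and other ATF4 targets have medians between -0.92 and -0.64, the other lists between -0.41 and -0.15.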

How the data were processed

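Total RNA of 6 MTO cultures (3 per group) was made into QuantSeq 3' FWD libraries, read single-end on a NextSeq 500. The authors deposited a gene table of CPM (reads scaled to a common total), and the genome build was GRCm38 per the labels. For the aligner, counter, annotation and strand setting, nothing was given in the sources used here. Every value was a whole multiple of the CPM worth of 1 read (100% within 0.01), so whole reads were recovered for edgeR and DESeq2 as alternatives. Of the 20756 identifiers, 20675 were given symbols, and 0 columns were left unmapped. The main comparison fitted log2(CPM + 1) in limma (version 3.58.1, R 4.3.3), with the variance trend on, to genes with at least 5 CPM in 3 libraries, with calls at a Benjamini-Hochberg adjusted p of 0.05 over all tested genes. A fold change on this scale understates the change of low genes. Scripts were tested on simulated data. Alternatives were TMM, quantile and RLE scaling, removal of rRNA-like, mitochondrial and ribosomal protein genes, no trend, other filters (none, 10 CPM) and pseudocounts (0.1, 10), a threshold of 0.01, edgeR 4.0.16, DESeq2 1.42.0 and leaving out each library. Members and lists were chosen with earlier results of these data known. Named were every member and, from each other list, up to 4 genes with the smallest adjusted p. In the related lists, 1 gene that this rule names is not reported here. Promoter windows came from RefSeq (GRCm38.p6) and gene positions from GENCODE. CPM levels of 3' tags do not depend on transcript length.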

Additional observations from a re-analysis of the deposited data

How the results depend on the processing

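Of the 29 members called lower, 23 were lower in all 18 alternatives, and Kars, Slc3a2, Slc1a5, Cars, Vars and Slc7a5 lost the call in 15, 10, 9, 4, 3 and 2 of them. Over the settings the number of members called lower ran from 23 (DESeq2) to 30 (without sgPrkcz replicate 15). In these settings 1350 and 2364 of all tested genes were lower. The median log2 difference of synthetases was -0.52 with TMM rescaling, edgeR with TMM, edgeR with RLE and DESeq2 and -0.55 with quantile normalization. That of transporters was -0.52 with TMM rescaling. That of ATF4-linked genes was -0.80 with TMM rescaling, edgeR with TMM and edgeR with RLE, -0.81 with DESeq2, -0.87 with quantile normalization, -0.86 without rRNA-like, mitochondrial and ribosomal protein genes and -0.85 with a pseudocount of 10. The median of all genes moved from -0.11 to near 0 with TMM, quantile, edgeR and DESeq2. The ATF4-linked count higher in sgPrkci was 1 (Ddit3) with TMM rescaling, quantile normalization, without rRNA-like, mitochondrial and ribosomal protein genes, edgeR with TMM and edgeR with RLE. Between 1719 and 2032 of all tested genes were higher in those settings. The transporter count lower in sgPrkci was 4 with the trend off and with DESeq2, where 2182 and 1350 of all tested genes were lower. With the trend off, the limma adjusted p was 0.000327 for Atf4 (3.02e-12 with it on) and 0.0872 for Slc7a5 (0.00193 with it on). DESeq2 called 1350 of all tested genes lower and 1450 higher, against 2534 and 1377 in the main fit. These counts differ in scaling as well as in the tool. Limma after TMM rescaling called 1837 lower, and edgeR with RLE 1928. The cause was not tested. Cebpg turned to 0.020 with TMM rescaling (adjusted p = 0.911). Leaving out each library in turn gave 14 to 16 synthetases, 5 to 8 transporters and 6 ATF4-linked genes lower. In the same fits 2110 to 2364 of the 9558 tested genes were lower. The class medians there ran from -0.68 to -0.48 for transporters and from -1.01 to -0.87 for ATF4-linked genes. Without sgPrkci replicate 12 Farsb passed (-0.40, adjusted p = 0.0445), and without sgPrkcz replicate 15 Slc7a6 passed (-0.58, adjusted p = 0.0388). Vars did not pass without sgPrkci replicate 10 (adjusted p = 0.0625). No paired analysis was possible because the groups share no replicate numbers. Depth limits Wars, Slc7a6 and Chac1 most, with 17 reads in the lowest case.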
